A study of Mus musculus with 25 samples.

Results

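The cytoplasmic ribosomal protein genes were followed across cultured mouse cortical astrocytes, taking every gene name made of Rpl or Rps and a number, with an optional a or x, together with Rplp0, Rplp1, Rplp2 and Rpsa. That naming rule found 76 genes among 54429 entries, of which 46 encode proteins of the large ribosomal subunit and 30 encode proteins of the small subunit. The names Rps3a1, Rack1 and Fau, which also encode ribosomal or ribosome-bound proteins, are among those that fall outside the rule and are described with the related genes.

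The study comprised 25 total RNA libraries from C57BL/6J cortical astrocytes, which were immunopanned on an anti-HepaCAM antibody (HepaCAM is an astrocyte surface protein) and cultured. EGFR is the epidermal growth factor receptor, and HBEGF, heparin-binding EGF-like growth factor, is one of its ligands. An EGFR inhibitor, or DMSO as its solvent control, was added on in vitro day 2 (3 libraries each), and a P53 inhibitor was compared with its own DMSO control in the same way (3 libraries each). HBEGF was present in 2 libraries and withdrawn in 2 libraries, both from the day of preparation, and untreated cells were collected on in vitro days 2, 7 and 14 (3 libraries each). The sources used here do not give the inhibitors' identity and dose, the harvest day of the treated cells, or whether the other cultures held HBEGF. Nothing in those sources says whether libraries of a group came from separate animals or cultures, so a p-value reflects the spread among these libraries alone, and that spread may be technical.

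Every ribosome holds a single copy of nearly every ribosomal protein, so the genes are read as a set in most tissues, and their messages are among the most abundant in dividing cells. Their transcripts usually begin with a cytosine followed by a run of pyrimidines, the 5′ terminal oligopyrimidine (TOP) motif, through which mTOR signalling and the binding protein LARP1 control translation and message stability. Growth factor signalling through EGFR is a classical input to this system, and MYC raises transcription of ribosome genes. Because short, abundant, spliced messages are readily copied back into the genome, ribosomal protein genes have also left more processed pseudogenes than almost any other class of mammalian gene.

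The libraries held 4012157 to 9698060 counted reads (median 6111002), and 13.4% to 31.5% of them came from the mitochondrial genome. The mitochondrial share differed between groups without overlap, at 20.4% to 20.9% with DMSO against 24.2% to 27.5% with the EGFR inhibitor, and at 19.1% and 20.3% with HBEGF against 31.5% and 30.0% after withdrawal. Of 10 astrocyte markers, 7 were at 1 RPKM or more in all libraries, with a summed level of 73.8 to 386 RPKM. Of 5 markers of oligodendrocyte precursors, 2 were at 1 RPKM or more in all libraries, and the single markers are not reported here. Summed, the precursor markers ranged from 85.2 to 506 RPKM, whereas neuron markers reached at most 3.8 RPKM, and endothelial markers at most 0.414 RPKM. Precursor markers summed to 321 to 417 RPKM with DMSO and 105 to 129 with the EGFR inhibitor, and to 386 to 411 with HBEGF and 85.2 to 94.1 after withdrawal.

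The 30 bases around the RefSeq start site were searched for a run like the TOP motif, and the 8 genes below were chosen after their values were seen. They are strong responders (Rps12, Rps2, Rpl12, Rpl7a, Rpl13a), the member that rose (Rpl15) and 2 members that did not pass the test in either treatment (Rplp2, Rps27). Each sequence runs from 10 bases before the start to 20 bases from it in GRCm38.p6, on the gene's own strand, and capitals mark a C followed by at least 4 further C or T that begins within 5 bases of the annotated start.
Rps12, chr10:23787190-23787219, minus strand: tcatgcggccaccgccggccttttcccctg
Rps2, chr17:24720053-24720082, plus strand: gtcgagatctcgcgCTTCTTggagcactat
Rpl12, chr2:32961702-32961731, plus strand: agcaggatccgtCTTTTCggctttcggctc
Rpl7a, chr2:26910797-26910826, plus strand: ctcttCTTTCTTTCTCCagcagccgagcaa
Rpl13a, chr7:45128726-45128755, minus strand: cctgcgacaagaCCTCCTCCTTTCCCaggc
Rpl15, chr14:18270967-18270996, minus strand: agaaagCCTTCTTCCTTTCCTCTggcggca
Rplp2, chr7:141447641-141447670, plus strand: cagcgtCTTCCTTTCgccgccggacgccgc
Rps27, chr3:90213629-90213658, minus strand: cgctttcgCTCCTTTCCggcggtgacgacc
In 7 of these 8 windows such a run was found. The marked runs began from 5 bases before to 4 bases after the annotated start and never exactly at it, so they are not shown to be TOP motifs. The Rps2 start used, at 24720063, lies inside the annotated gene, which begins at 24718116. The Rps12 window held none in that position, but a run of C and T lies further downstream in it.

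RefSeq start sites were matched for 56 of the 76 genes, and 27 of the 56 (48.2%) had the run within 5 bases of a start, against 21.2% of 27025 genes in the same table. Exactly at the start, the run was present in 13 of 56 genes (23.2%), against 3.01% of all genes. These are matches of letters at annotated starts, which can lie some bases from the start used in these cells.

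The members spanned a wide range of levels although their proteins are used in nearly equal numbers. The deposited RPKM values (reads per kilobase of gene and per sequencing depth) had been scaled by the whole gene span, introns included, so levels of different genes are compared here with the recovered reads divided by exon length instead, an exon-length RPKM. On this scale the members ran from 0.397 to 493, a ratio of 1243, with a median of 12.9. Highest was Rpl4 (chromosome 9, 64173375 to 64178666, plus strand), whose protein lines the tunnel through which the new peptide leaves, at an exon-length RPKM of 493. Also among the highest were Rps14 at 273, Rplp1 at 268, Rps15 at 257 and Rpl8 at 235. Rps14 and Rps15 belong to the small subunit, Rplp1 to the stalk of the large subunit, and Rpl8 to the surroundings of the peptidyl transferase centre. The Rps14 value is uncertain, because the span counted for it overlaps Ndst1 on the other strand and the sources used here do not say whether counting used strand. In all, 15 members overlap a coding gene on the other strand. Rpl12, Rpl15, Rpl18, Rps18 and Rps27a are among them, so the same limit holds for their levels and changes below. Rpl35 (0.397), Rpl24 (0.683), Rps28 (1.07), Rps10 (1.18), Rpl23a (1.25) and Rps27 (1.53) had the lowest levels on this scale.

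A library held a mean of 37679 reads of the 76 genes, and the 5 genes with the most reads contributed 50.6% of them. At the other end, Rpl24 was listed at 0 in 1 library (P53 inhibitor 3) and Rpl35 in 2 libraries (EGFR inhibitor 2 and day 2 replicate 3), at mean read counts of 4.40 and 3.28. Of the 76 genes, 69 passed the filter for testing (at least 1 RPKM in at least 2 libraries), 41 of the large and 28 of the small subunit. The other 7 were Rpl11, Rpl19, Rpl23a, Rpl24, Rpl35, Rps10 and Rps28, with mean reads of 3.28 (Rpl35) to 39.8 (Rpl11) per library, and no change is reported for them. Rpl11 is known as a member of the complex that restrains the P53 regulator MDM2, so the P53 comparison below lacks it.

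Sequence copies were in the table for all but 2 of the members. Aligning each coding sequence to annotated pseudogene transcripts found 1716 copies with at least 80% identity over at least 50% of the coding sequence, of which 1605 are entries of the table, 535 are at least 95% identical, and 1275 had a read. A member had a median of 16 copies in the table, from 0 for Rpl8 to 134 for Rpl7a. The copies held a mean of 15592 reads per library, and for 34 of the 76 genes their reads exceeded the reads of the gene itself. The 9 members with at least 1000 reads had 0 to 18 copies (median 2), whereas the 10 members under 20 reads had 10 to 63 (median 15.5). The median of these low members was thus close to the 16 over all members, and the most abundant members had fewer. Across the 76 members, own reads and number of copies had a Spearman correlation of -0.37, a description across genes that share the same libraries. Adding the copies' reads to each member narrowed the range from a ratio of 1964 in own reads to 207 in summed reads, and no summed value was below 34.7 reads.

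The clearest cases, chosen after their values were seen, were Rpl10a and Rpl23. Rpl10a had a mean of 75.8 reads, while the pseudogene Rpl10a-ps1 on chromosome 1 had 1624 (587 to 2686 over libraries) and matched 648 of the 651 coding bases with 0 aligned bases differing. Rpl23 had 372 reads and Gm9794 on chromosome 6 had 819 (380 to 1297), with 1 differing base among 423. A window of 45 bases around the difference is shown because such a base is what separates the gene's coding sequence from that of its copy, and capitals mark the base that differs.
Rpl23, coding bases 231 to 275: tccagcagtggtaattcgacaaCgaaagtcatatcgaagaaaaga
Gm9794, the same window: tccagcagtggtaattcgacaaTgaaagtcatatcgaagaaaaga
The sources used here do not say how reads matching a gene and its copies equally well were treated, so values of single members with close copies are uncertain. Counts of members that fell with the EGFR inhibitor and after HBEGF withdrawal are therefore also given with copy reads added.

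**Figure D1:**
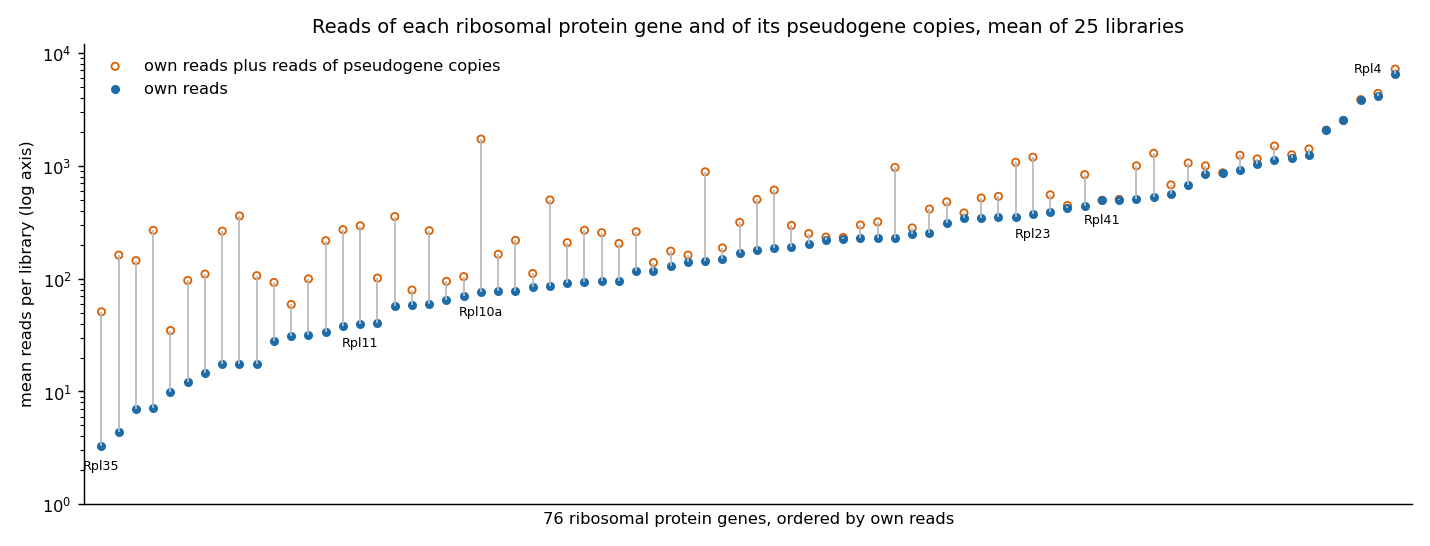
Mean reads per library (log axis) for each of the 76 ribosomal protein genes, ordered by own reads, with filled dots for the gene's own reads and open circles for own plus pseudogene copy reads. Own reads run from 3.28 for Rpl35 to 6440 for Rpl4, and the open circles lie far above the dots mainly at the low end.

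Summed over all 76 genes, ribosomal protein reads made up 0.549% to 0.978% of the reads outside the mitochondrial genome (median 0.781%). With DMSO the share was 0.748%, 0.781% and 0.809%, and with the EGFR inhibitor 0.631%, 0.653% and 0.622%. Every inhibitor library lay below every DMSO library, and the means were 0.635% ± 0.0159 (SD, n = 3) against 0.779% ± 0.0303 (SD, n = 3), with p = 0.1 in a two-sided exact permutation test, the smallest value that 3 against 3 libraries allow. With HBEGF the share was 0.828% and 0.673%, and after withdrawal it was 0.549% and 0.568%. These groups did not overlap either, at means of 0.751% ± 0.110 and 0.559% ± 0.0139 (SD, n = 2), and the exact permutation p of 0.333 is the smallest that 2 against 2 libraries allow. Without the 5 members with the most reads the withdrawal share was 0.764 times the HBEGF share, against 0.744 times with them. Pseudogene copies, taken separately, held 0.323% of these reads with DMSO, 0.264% with the EGFR inhibitor, 0.302% with HBEGF and 0.220% after its withdrawal.

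The P53 groups overlapped, at 0.737%, 0.870% and 0.832% with DMSO and 0.792%, 0.791% and 0.723% with the inhibitor (exact permutation p = 0.4, n = 3). In vitro day 2 libraries had 0.783%, 0.978% and 0.621%, day 7 libraries 0.832%, 0.946% and 0.874%, and day 14 libraries 0.699%, 0.858% and 0.659%. The 3 ages overlapped, with exact permutation p-values of 0.7 for day 14 against day 2, 0.5 for day 7 against day 2 and 0.2 for day 14 against day 7. Without day 2 replicate 2, the day 14 share was higher than the day 2 share by 0.0366 percentage points. In this family of 6 comparisons none could pass an adjusted threshold of 0.05. In bulk RNA, fewer cells of a type and less RNA per cell cannot be told apart.

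**Figure D2:**
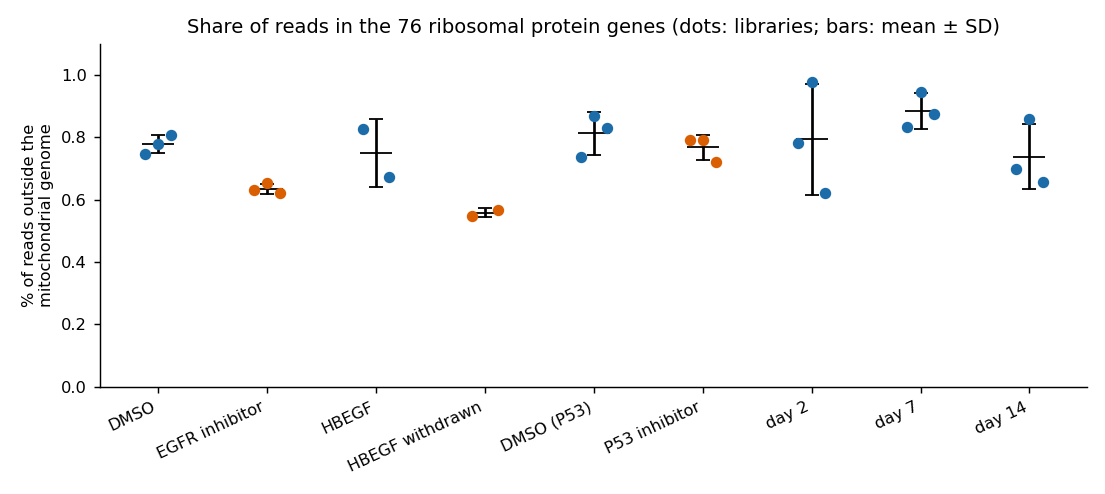
Ribosomal protein reads as a percentage of reads outside the mitochondrial genome (y axis) in each of the 9 groups (x axis), with dots for libraries and bars for the mean ± SD. The EGFR inhibitor libraries lie between 0.622% and 0.653%, below all 3 of their DMSO controls, and the 2 withdrawal libraries are the lowest of the 25.

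EGFR inhibition was followed by lower levels of many ribosomal protein genes and higher levels of none. All changes from here on are on the log2(RPKM + 1) scale, with the standard error after the ± sign and Benjamini-Hochberg adjusted p from a single limma fit over all 13850 tested genes. Of the 69 tested members, 27 fell and 0 rose, against 22.2% of all tested genes that fell and 16.3% that rose. The median change of the members was -0.38, compared with -0.02 over all tested genes and -0.33 over the 2354 tested genes averaging 5 RPKM or more. Among genes of that level, 20 of 44 members fell against a background of 41%, so the share of members that fell was close to that of other well expressed genes. In 65 of the 69 members the change was negative, and the share of all tested genes with a negative change is not reported here. In 42 members every inhibitor library was below every DMSO library (28.7% of all tested genes), while the reverse order held for 1. With copy reads added, 34 of 76 members fell, against 23% of the 13407 genes then tested.

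Among large-subunit proteins, Rpl12 of the stalk base had the largest change (chromosome 2, 32961559 to 32965345, plus strand). It measured 5.18, 3.68 and 4.75 RPKM with DMSO and 2.27, 1.98 and 1.37 RPKM with the inhibitor, without overlap, a change of -0.95 ± 0.19 (adjusted p = 0.000746). Rpl4 measured 199, 216 and 231 RPKM with DMSO and 137, 131 and 131 with the inhibitor. Its 3 inhibitor libraries were tightly grouped at 0.619 times the DMSO mean, a change of -0.69 ± 0.09 (adjusted p = 1.63e-05). Rpl13a, known also for extra-ribosomal control of translation in inflammation, measured 8.63, 11.9 and 9.22 RPKM with DMSO and 4.93, 5.51 and 6.01 with the inhibitor (-0.74 ± 0.13, adjusted p = 0.000131). Rpl18 fell from 8.40, 9.90 and 8.88 RPKM to 5.62, 4.98 and 4.96 (-0.70 ± 0.11, adjusted p = 7.47e-05). All 4 of these kept an adjusted p below 0.05 when any single library of the comparison was left out. Rpl10, a late-joining protein near the P site, measured 5.65, 4.65 and 4.55 RPKM with DMSO and 2.44, 3.73 and 1.72 with the inhibitor (-0.75 ± 0.25, adjusted p = 0.0258). That call was lost without DMSO 1, inhibitor 1 or inhibitor 3, with adjusted p-values of 0.0635 to 0.130.

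Among small-subunit proteins, Rps12 and Rps2 had the largest changes. Rps12, which is known from cell competition in flies, measured 12.2, 10.5 and 9.30 RPKM with DMSO and 4.60, 7.32 and 4.72 RPKM with the inhibitor (-0.85 ± 0.24, adjusted p = 0.0076). For Rps2, at the entrance of the mRNA channel, the levels were 13.5, 12.7 and 15.7 RPKM against 7.66, 8.39 and 6.18 (-0.84 ± 0.22, adjusted p = 0.005). Both groups were separate for both genes. Rps18, a protein of the small-subunit head, measured 9.24, 8.84 and 9.08 RPKM with DMSO and 6.22, 5.99 and 4.55 with the inhibitor (-0.62 ± 0.14, adjusted p = 0.0019). Rps4x, encoded on the X chromosome, fell from 18.3, 18 and 19.6 RPKM to 13.4, 11.7 and 11.6 (-0.57 ± 0.17, adjusted p = 0.0116; 0.0885 with quantile normalization). Rps6, the substrate of S6 kinases, was measured at 1.32, 1.09 and 0.751 RPKM against 1.31, 0.726 and 0.504, overlapping, with a change of -0.17 (adjusted p = 0.609).

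The most abundant members gave mixed outcomes. Rpl8 measured 152, 149 and 165 RPKM with DMSO and 113, 100 and 105 with the inhibitor (-0.54 ± 0.20, adjusted p = 0.0385). Its groups were separate, but leaving out any 1 of the 6 libraries moved the adjusted p to 0.0549 to 0.108. Rps15 overlapped between groups at 102, 106 and 111 RPKM against 97.4, 115 and 78.7 (-0.14, adjusted p = 0.633). For Rps14 the values were 17.7, 22.1 and 20.2 RPKM with DMSO and 22.4, 25.7 and 22.2 with the inhibitor (0.22 ± 0.27, adjusted p = 0.575), the one abundant member whose inhibitor libraries all lay above the controls.

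Of the acidic stalk, which recruits the GTPases of translation, 1 of 3 genes passed. Rplp0, its anchor, fell from 31.9, 36.2 and 34.8 RPKM to 24.1, 24.1 and 22.6 (-0.52 ± 0.15, adjusted p = 0.00932), although not with quantile normalization (-0.16, adjusted p = 0.251). Rplp1 was at 111, 93.1 and 111 RPKM against 108, 124 and 107 (0.11 ± 0.34, adjusted p = 0.842), and Rplp2 at 18.3, 19.6 and 17.9 against 17.9, 18.1 and 18.2 (-0.04 ± 0.21, adjusted p = 0.919). Rplp1 also had the largest spread within groups of all tested members, with an SD of 0.35 on the log2 scale against a median of 0.18. Whether the Rplp0 change differs from those of its partners was not tested.

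More members passed after HBEGF withdrawal than in any other comparison. Of 69 tested members 39 fell and 1 rose, against 22.5% and 10% of all tested genes. Their median change was -0.65, compared with -0.10 over all tested genes and -0.45 over genes with at least 5 RPKM, and 30 of 44 members of that level fell against a background of 43.7%. In 54 members both withdrawal libraries lay below both HBEGF libraries (37.1% of all tested genes). With copy reads added, 44 of 76 fell (23% of the genes then tested). Fitted on its 4 libraries alone, the comparison called no member and 0% of genes as lower by adjusted p. In that limma fit 38 members were lower at an unadjusted p under 0.05, a threshold for which the share of all tested genes is not reported here. The lowest adjusted p among the members was 0.0736. The calls therefore depend on the spread estimated from all 9 groups together, and leaving out HBEGF replicate 1 reduced the members that fell from 39 to 23.

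Rpl7a, a large-subunit gene on chromosome 2 (26910764 to 26913318, plus strand) whose introns host snoRNA genes, measured 26.1 and 24.2 RPKM with HBEGF and 10.7 and 10.0 after withdrawal. That is 0.412 times the HBEGF mean, a change of -1.20 ± 0.16 (adjusted p = 1.77e-05). Rps12 measured 14.5 and 12 RPKM against 7.16 and 3.70 (-1.20 ± 0.29, adjusted p = 0.00373), and without withdrawal replicate 2 the change was -0.80 (adjusted p = 0.0824). For Rps2 the values were 18.2 and 15 RPKM against 6.94 and 6.62 (-1.17 ± 0.27, adjusted p = 0.0024). Rps2 stayed below the threshold when any 1 of the 4 libraries was left out. Rps4x measured 18.6 and 15.7 RPKM against 7.83 and 7.5 (-1.06 ± 0.21, adjusted p = 0.00067).

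Rpl39, one of the smallest proteins of the exit tunnel, measured 14.3 and 12.9 RPKM with HBEGF and 6.21 and 6.34 after withdrawal (-1.0 ± 0.23, adjusted p = 0.0024). With the EGFR inhibitor Rpl39 measured 7.92, 9.07 and 9.20 RPKM against 12.9, 12 and 14.1 with DMSO (-0.53 ± 0.19, adjusted p = 0.0314), a call that leaving out any library but DMSO 2 moved to adjusted p-values of 0.0504 to 0.101. Rpl4 was at 194 and 190 RPKM with HBEGF and at 104 and 97.3 after withdrawal (-0.93 ± 0.11, adjusted p = 9.17e-06). It had the lowest adjusted p of the named members. Rpl12 (6.45 and 5.58 against 2.87 and 2.47 RPKM) and Rpl18 (7.98 and 7.85 against 3.75 and 4.03 RPKM) fell by 0.93 ± 0.24 (adjusted p = 0.00531) and 0.87 ± 0.14 (adjusted p = 0.000101). Neither gene's libraries overlapped between the groups.

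Rpl41, whose 75-base coding sequence is the shortest of the family, measured 100 and 67.3 RPKM with HBEGF and 53.5 and 47.2 after withdrawal (-0.70 ± 0.21, adjusted p = 0.0142). Rpsa, the laminin receptor precursor, measured 3.57 and 2.76 RPKM against 1.47 and 1.36 (-0.78, adjusted p = 0.0155). Rps18, Rpl8 and Rplp0 also fell. For Rpl41, Rpsa, Rps18 and Rplp0, 2 of the 4 single-library omissions, and for Rpl8 3 of 4, moved the adjusted p above 0.05, with HBEGF replicate 1 among them each time. Rps27a, which is made as a ubiquitin fusion, changed by -0.38 (adjusted p = 0.229), Rpl22 by -0.32 (adjusted p = 0.157), Rps6 by -0.69 (adjusted p = 0.069) and Rplp1 by 0.11 (adjusted p = 0.902). None of these 4 passed.

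**Figure D3:**
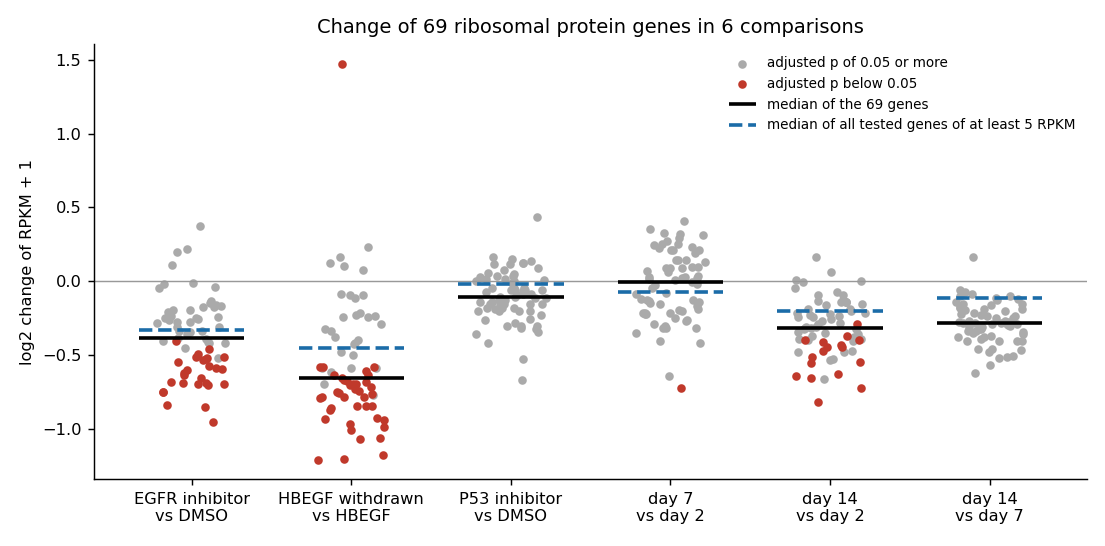
Change in log2(RPKM + 1) (y axis) of the 69 tested ribosomal protein genes in 6 comparisons (x axis), one dot per gene, red where the adjusted p was below 0.05. The black line is the median of the members and the blue dashed line that of the 2354 genes with at least 5 RPKM; the members' median was -0.38 with the EGFR inhibitor and -0.65 after HBEGF withdrawal.

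Rpl15, on chromosome 14 (18267823 to 18271391, minus strand), was the exception. It encodes a large-subunit protein, and it was the only tested member that rose in either treatment. With HBEGF it measured 5.47 and 5.14 RPKM, and after withdrawal 13.6 and 19.9 RPKM. Both withdrawal values exceeded those of the other 23 libraries, among which DMSO 1 of the EGFR experiment was highest at 9.79 RPKM. The change was 1.47 ± 0.27 (adjusted p = 0.000391), 3.16 times the HBEGF mean, and it held without any 1 of the 4 libraries. With the EGFR inhibitor the gene measured 3.66, 4.62 and 6.31 RPKM against 9.79, 5.84 and 4.26, overlapping (-0.34 ± 0.22, adjusted p = 0.244). Nkiras1 overlaps Rpl15 on the opposite strand and measured 0.789 and 0.712 RPKM with HBEGF and 0.891 and 0.911 after withdrawal (0.12, adjusted p = 0.553).

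The difference between the 2 treatment changes was itself tested. For Rpl15 it was -1.81 ± 0.35 (adjusted p = 0.0111, limma), the only member to pass, against 0.556% of tested genes that were lower and 1.27% that were higher in the EGFR inhibitor change. The call was lost without withdrawal replicate 2 (-1.53, adjusted p = 0.0514), with each experiment fitted alone and with a replicate block. For the other 68 tested members no difference between the treatments passed, although the median difference over the members was 0.25, against 0.14 over genes with at least 5 RPKM.

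The treatments have separate controls, but both were called from the same fit with a shared spread per gene. Their calls, set side by side here, are therefore not independent of each other. In both, 25 members fell, which is 92.6% of the 27 that fell with the inhibitor and 64.1% of the 39 that fell after withdrawal. Of all tested genes 16.1% fell in both, and of the genes with at least 5 RPKM 33.1% did, against 20 of 44 members of that level. Rpl10 and Rpl36a passed with the inhibitor alone. Rpl36a measured 2.36, 2.49 and 2.73 RPKM with DMSO against 1.71, 1.38 and 1.44 (-0.49 ± 0.15, adjusted p = 0.0145; above 0.05 without DMSO 3 or inhibitor 2), and 3.58 and 2.65 with HBEGF against 2.22 and 3.55 (-0.09, adjusted p = 0.758). Another 15 members passed after withdrawal alone, namely Rpl15, which rose, and 14 that fell, among them Rpl41 and Rpl9, and 27 tested members passed in neither. Apart from Rpl15, for none of these genes did the difference between the treatments itself pass, so the lists do not show that a gene responded to 1 treatment alone. Across the 69 members the 2 changes had a Spearman correlation of 0.74 and a Pearson correlation of 0.62, a description across genes measured in the same libraries.

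**Figure D4:**
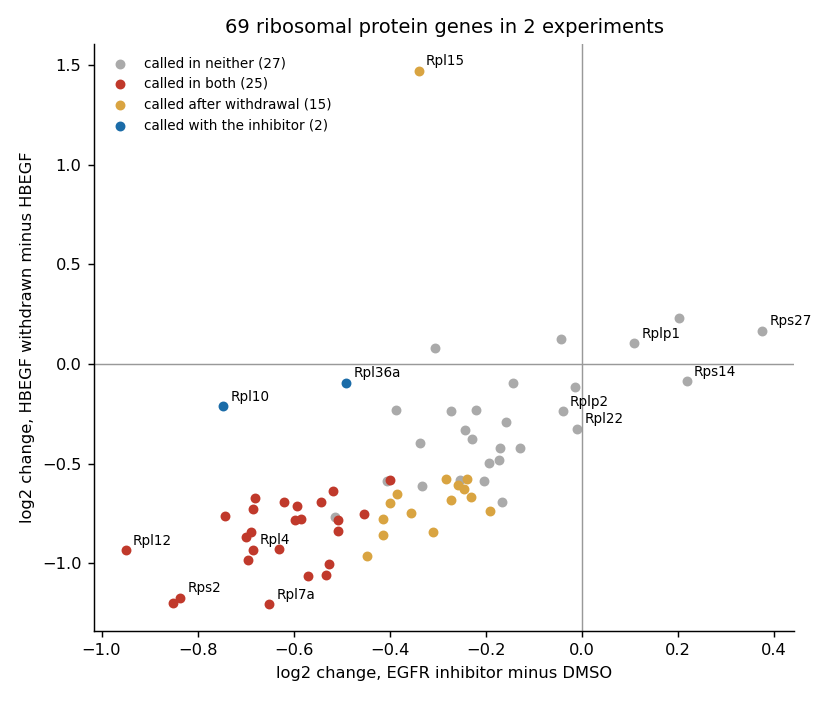
Change with the EGFR inhibitor (x axis) against change after HBEGF withdrawal (y axis), both in log2(RPKM + 1), for the 69 tested ribosomal protein genes, coloured by the treatments in which each fell or rose. Of the genes 25 were called in both, 2 with the inhibitor alone, 15 after withdrawal alone and 27 in neither; Rpl15 lies apart at the top, at 1.47 after withdrawal.

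Members of both subunits were among those that fell. With the EGFR inhibitor 16 of 41 large-subunit and 11 of 28 small-subunit members fell, and after HBEGF withdrawal 24 and 15. Of all tested genes 22.2% and 22.5% fell, and of genes with at least 5 RPKM 41% and 43.7%. Large-subunit reads divided by small-subunit reads gave 0.990 with the inhibitor and 1.16 with DMSO, without overlap (exact permutation p = 0.1, the smallest possible with n = 3), and 1.08 after withdrawal against 1.18 with HBEGF, with overlap (exact permutation p = 0.667, n = 2).

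Coding length ran with the size of the change in both treatments. Between coding length and change the Spearman correlation was -0.46 with the inhibitor and -0.43 after withdrawal, compared with 0.01 for the P53 inhibitor and -0.15 for day 14 against day 2. Over all tested genes, 22.2% fell with the inhibitor and 22.5% after withdrawal. Of the 35 members with more than 453 coding bases, 22 fell with the inhibitor (median -0.53) and 25 after withdrawal (median -0.73). Of the 34 members with at most 453 bases, 5 fell with the inhibitor (median -0.28) and 14 after withdrawal (median -0.54). These are descriptions across genes in the same libraries. The spread within groups also ran with length, at a Spearman correlation of -0.36 between coding length and within-group SD, so that shorter members were noisier. The part of length and noise in the counts was not tested.

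**Figure D5:**
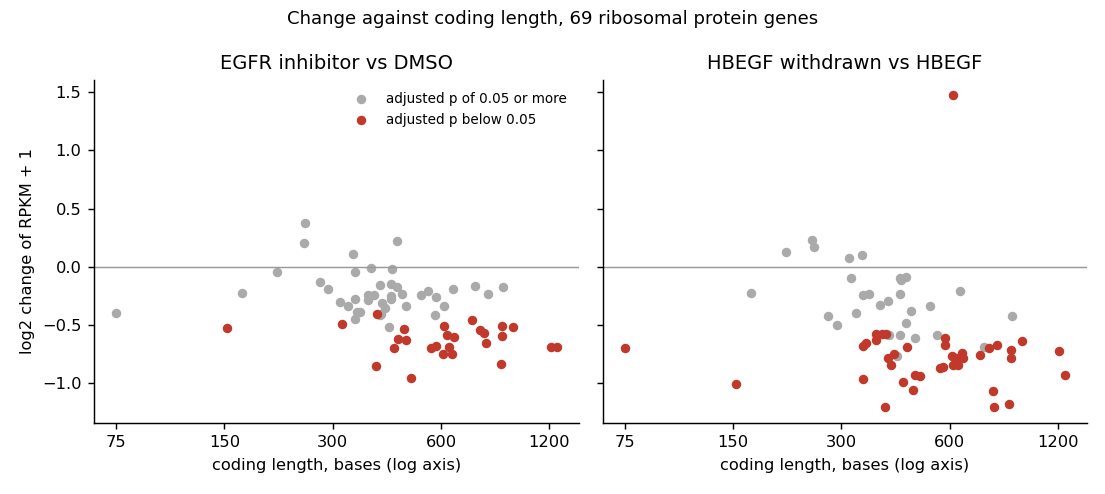
Change in log2(RPKM + 1) (y axis) against coding length in bases (log x axis) for the 69 tested ribosomal protein genes, with the EGFR inhibitor in one panel and HBEGF withdrawal in the other, red where the adjusted p was below 0.05. The points slope downward in both panels, and Rpl4 at 1257 bases is the longest member.

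Members with and without the start-site run had like median changes. With the EGFR inhibitor 10 of 24 tested members with the run and 11 of 26 without it fell (medians -0.39 and -0.40), and after withdrawal 16 of 24 and 14 of 26 (medians -0.69 and -0.63). The shares of all tested genes that fell were 22.2% and 22.5%. Rps12, with no run at its start above, was among the largest changes, while Rplp2 and Rps27, with runs, did not pass in either treatment. Rps27, a zinc-finger protein of the small subunit, was at 0.840, 2.13 and 1.40 RPKM with DMSO and 2.28, 2.07 and 2.00 with the inhibitor (0.38 ± 0.31, adjusted p = 0.372). Its mean was 9.96 reads per library (2 to 17), too few for a change to be detectable.

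Depth and copies were set beside the counts. Over all tested genes, 22.2% fell with the inhibitor and 22.5% after withdrawal. Of the 27 tested members with at least 300 reads, 14 fell with the inhibitor and 21 after withdrawal, and of the 42 with fewer reads 13 and 18. Of the 27 tested members whose copies held more reads than they did, 8 fell with the inhibitor and 11 after withdrawal, and of the 42 whose own reads were the larger, 19 and 28, a contrast that was not tested. Among 450 copies that could be tested themselves, 33 fell and 15 rose with the inhibitor (median -0.07), and 57 fell and 14 rose after withdrawal (median -0.17). Both directions were rarer among the copies than among all tested genes, of which 16.3% rose with the inhibitor and 10% after withdrawal. Rpl10a-ps1, the copy with many more reads than its parent, fell by 0.62 with the inhibitor (adjusted p = 0.000193, but 0.189 with quantile normalization) and by 1.15 after withdrawal (adjusted p = 5.73e-06).

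Other features of the libraries moved with both treatments. Astrocyte markers summed to 366 to 386 RPKM with the EGFR inhibitor against 111 to 142 with DMSO, and to 278 to 301 after withdrawal against 118 to 125 with HBEGF. Microglia markers, chiefly Lyz2, summed to 11.2 and 24.9 RPKM after withdrawal against 0.0421 and 0.180 with HBEGF, where 3 of the 6 were at 0 in both libraries. They summed to 1.78 to 4.75 RPKM with the EGFR inhibitor against 0.433 to 0.756 with DMSO. Pericyte or fibroblast markers reached 1.22 to 1.5 RPKM with the inhibitor and 1.73 to 1.97 after withdrawal, and were at most 0.289 RPKM in their controls. Oligodendrocyte markers summed to 17.7 and 20.6 RPKM after withdrawal against 4.85 and 11.3 with HBEGF, and to 1.07 to 1.26 with the inhibitor against 0.304 to 0.452 with DMSO. Neuron markers summed to 2.67 to 3.8 RPKM with the inhibitor against 0.560 to 0.632 with DMSO, and to 2.39 and 3.19 after withdrawal against 0.616 and 2.09 with HBEGF. The part of these markers and of the mitochondrial share in the ribosomal protein results was not tested. Scaled to reads outside the mitochondrial genome, 22 members fell with the inhibitor (19.8% of tested genes) and 28 after withdrawal (15.6% of tested genes).

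No ribosomal protein gene passed the test with the P53 inhibitor. P53 is the transcription factor stabilised when ribosome assembly fails, and in this comparison 0 members rose and 0 fell, against 0.0289% and 0.152% of all tested genes. At an unadjusted p under 0.05, limma had 1 member lower and 0 higher, and limma voom on recovered reads called 0. With the P53 libraries fitted alone, 9 members were lower and 0 higher at an unadjusted p under 0.05, and 0 passed after adjustment. Shares of all tested genes at the unadjusted threshold are not reported here. The lower gene in the joint fit was Rps21, named after its values were seen, at 22.7, 23.7 and 18.5 RPKM with DMSO and 11.9, 12.3 and 15.7 with the inhibitor (-0.66 ± 0.28, adjusted p = 0.534). The median change was -0.10, against -0.02 over genes with at least 5 RPKM, and in 10 members all inhibitor libraries lay below all controls (11.3% of tested genes). Rpl4 was at 196 ± 13.3 RPKM with the inhibitor and 194 ± 9.32 with DMSO (SD, n = 3), a change of 0.01 ± 0.09 (adjusted p = 1). The ratio of large- to small-subunit reads was 1.13 against 1.06, without overlap (exact permutation p = 0.1, the smallest possible).

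In culture without treatment, 17 members were lower on day 14 than on day 2 and 0 were higher, against 17.6% and 5.55% of all tested genes. The members' median change was -0.31, compared with -0.20 over genes with at least 5 RPKM, and 13 of 44 members of that level fell against a background of 25.4%. No overlap, with day 14 below day 2, was found for 15 members (24.7% of tested genes). The count depended on scaling and on single libraries. With median-of-ratios scaling or scaling to reads outside the mitochondrial genome it was 4, against 9.56% and 10.1% of tested genes. Leaving out day 2 replicate 2, day 14 replicate 1 or day 14 replicate 3 gave 2, 4 and 6. With the replicate number as a block, it was 15.

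Rpl13a measured 12, 14.1 and 12 RPKM on day 2, 10.2, 11 and 8.95 on day 7, and 6.91, 9.26 and 7.37 on day 14. The day 14 libraries were all below the day 2 libraries (-0.64 ± 0.13, adjusted p = 0.00128), and this call held without any 1 of the 6 libraries but not with copy reads added (adjusted p = 0.111). Rpl36a measured 3.34, 3.34 and 3.07 RPKM on day 2 and 2.05, 2.21 and 1.03 on day 14 (-0.65 ± 0.15, adjusted p = 0.00424), and its call held without any 1 library but not with copy reads added (adjusted p = 0.241). Rpl9, a large-subunit protein, fell from 11.6, 15 and 12.1 RPKM to 5.15, 9.51 and 8.10 (-0.72 ± 0.19, adjusted p = 0.00863), a call lost without day 14 replicate 1 or day 2 replicate 2 (adjusted p = 0.0513 to 0.0672). Rps12 measured 11.3, 21.9 and 11.9 RPKM on day 2, 7.16, 9.95 and 8.10 on day 7, and 6.15, 9.88 and 7.58 on day 14. Day 2 replicate 2 was the highest of all libraries for this gene. Its change to day 14 was -0.82 ± 0.24 (adjusted p = 0.0171), and without day 2 replicate 2 it was -0.53 (adjusted p = 0.121). Rpl12 at 5.72, 6.67 and 5.19 RPKM on day 2 and 2.96, 4.05 and 4.10 on day 14 (-0.55 ± 0.19, adjusted p = 0.0485) lost its call without any 1 of the 6 libraries.

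Between day 2 and day 7 Rps12 alone fell (-0.72 ± 0.24, adjusted p = 0.0495), and 0 members rose, against 9.59% and 4.12% of all tested genes. That call was lost without day 7 replicate 1, day 7 replicate 3 or day 2 replicate 2 (adjusted p = 0.123 to 0.271). The members' median change was -0.00. From day 7 to day 14, 0 members rose and 0 fell by limma's adjusted p, against 0.0505% and 0.0866% of tested genes, while 14 were lower and 0 higher at an unadjusted p under 0.05 (6 and 0 with the 3 ages fitted alone), and limma voom called 0. In 68 of 69 members that change was negative, with a median of -0.28 against -0.11 over genes with at least 5 RPKM. For all tested genes, the share with a negative change and the share at that unadjusted threshold are not reported here. No overlap, with day 14 lower, was found for 12 members (9.96% of tested genes). Comparisons that share day 2, day 7 or day 14 libraries are not independent of each other.

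Of the 25 members that fell in both treatments, 12 also fell from day 2 to day 14, against 1301 of the 2226 tested genes that fell in both. Among genes with at least 5 RPKM it was 11 of 20 members against 433 of 780 genes. The members' share was thus not above that of all such genes. Counted over everything tested, 12 of 69 members fell in all 3 comparisons, against 9.39% of genes. At 5 RPKM or more it was 11 of 44 members against 18.4%. As the day 14 count fell from 17 to 4 under another scaling and to 2 without day 2 replicate 2, this set depends on the same choices. The 12 were Rpl12, Rpl13a, Rpl18, Rpl4, Rpl7a, Rps12 and Rps2 and, named after their values were seen, Rpl13, Rpl14, Rpl27a, Rpl6 and Rps24.

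The genes of ribosome assembly were followed as the machinery that the ribosomal proteins feed into. Of 64 tested genes for nucleolar processing and assembly, 56 fell and 0 rose with the EGFR inhibitor (median -0.64), 56 fell and 0 rose after HBEGF withdrawal (median -0.74), and 45 fell and 0 rose from day 2 to day 14 (median -0.51). Of all tested genes, 22.2% fell and 16.3% rose with the inhibitor, and 22.5% fell and 10% rose after withdrawal. From day 2 to day 14, 17.6% fell and 5.55% rose. Among genes with at least 5 RPKM, 41%, 43.7% and 25.4% fell, in the same order. Npm1, the nucleolar chaperone nucleophosmin, is not counted among these genes but in the list of TOP messages below. It measured 27.1, 26.8 and 24.1 RPKM with DMSO and 9.21, 10.1 and 8.65 with the inhibitor (-1.39 ± 0.12, adjusted p = 1.52e-07). With HBEGF Npm1 was at 32.7 and 29.6 RPKM and after withdrawal at 7.67 and 8.23 (-1.84 ± 0.14, adjusted p = 1.34e-07). The Npm1 groups were separate in both treatments. Nop56, a core protein of C/D snoRNPs, measured 18.9, 13.3 and 15.1 RPKM with DMSO and 4.43, 4.50 and 4.12 with the inhibitor (-1.64, adjusted p = 1.25e-06). Nucleolin, Ncl, measured 112, 112 and 106 RPKM against 53.5, 50.4 and 47.4 (-1.11, adjusted p = 1.29e-06). Of 13 tested subunits and factors of RNA polymerase I, which makes ribosomal RNA, 9 fell in each treatment, and Polr1a, its largest subunit, measured 1.73, 1.64 and 1.64 RPKM with DMSO and 0.760, 0.753 and 0.761 with the inhibitor (-0.60, adjusted p = 1.17e-05).

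A list of translation factors and other genes taken to have TOP messages, Npm1 and Nap1l1 among the latter, was followed too. It gave 19 of 26 lower with the inhibitor (median -0.46) and 21 of 26 lower after withdrawal (median -0.76), with 0 rising in either. Of all tested genes, 22.2% and 22.5% fell. Whether the start sites of this list carry the motif is not reported here. Pabpc1, the poly(A)-binding protein, measured 56.3, 61.1 and 64.2 RPKM with DMSO and 42.6, 40.4 and 38.6 with the inhibitor (-0.57 ± 0.10, adjusted p = 0.000265), a call lost with quantile normalization (adjusted p = 0.245). With HBEGF Pabpc1 was at 49.9 and 56.3 RPKM and after withdrawal at 19.3 and 18.2 (-1.45 ± 0.13, adjusted p = 3.51e-07). The difference between these 2 changes was 0.89 ± 0.16 (adjusted p = 0.00851), with the larger fall after withdrawal.

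Regulators of growth moved in both directions, 9 of 25 up and 9 down with the inhibitor, against 16.3% and 22.2% of all tested genes. Myc measured 45.3, 33.4 and 39.0 RPKM with DMSO and 11.9, 11.7 and 10.4 with the inhibitor (-1.69 ± 0.16, adjusted p = 4.2e-07), and 50.5 and 42.5 with HBEGF and 15.7 and 17.5 after withdrawal (-1.43 ± 0.20, adjusted p = 2.73e-05). Mycn, its paralog, went the other way, from 1.44, 2.27 and 2.23 RPKM to 7.55, 9.58 and 9.59 with the inhibitor (1.74 ± 0.19, adjusted p = 1.53e-06) and from 1.85 and 1.29 to 8.51 and 8.77 after withdrawal (1.91 ± 0.23, adjusted p = 7.75e-06). Mycl, the third paralog, was the single gene of these lists to change with the P53 inhibitor, from 4.42, 4.83 and 4.44 RPKM to 2.14, 2.08 and 1.90 (-0.87, adjusted p = 0.0486). That Mycl call was lost without any 1 of the 6 libraries (adjusted p = 0.0995 to 0.192) and in 5 of 10 other settings, the replicate block among them. Maf1, the repressor of RNA polymerase III, rose from 7.27, 10.7 and 9.26 RPKM to 15.2, 14.7 and 13.8 with the EGFR inhibitor (0.64, adjusted p = 0.000267). Eif4e, the cap-binding factor, fell from 3.19, 2.51 and 2.45 RPKM to 1.16, 0.934 and 0.920 (-0.89, adjusted p = 3.61e-06), and Larp1 from 3.92, 3.31 and 3.23 to 1.93, 2.00 and 1.64 RPKM (-0.65).

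Among the ribosomal genes outside the naming rule, Rack1, the scaffold on the small-subunit head, measured 76.2, 82.0 and 88.6 RPKM with DMSO and 57.3, 60.0 and 53.9 with the inhibitor (-0.52 ± 0.16, adjusted p = 0.0162; above 0.05 without DMSO 3 or inhibitor 3). After withdrawal Rack1 was at 34.6 and 39.7 RPKM against 82.5 and 68.6 with HBEGF (-1.0 ± 0.20, adjusted p = 0.000787). Rps3a1 also fell in both, by 0.35 (adjusted p = 0.0365) and 0.84 (adjusted p = 0.000423), and its inhibitor call was lost in 5 of 6 single-library omissions (adjusted p = 0.0639 to 0.0994) and in 3 other settings. With quantile normalization the inhibitor calls of both were lost (adjusted p = 0.554 for Rack1 and 0.694 for Rps3a1). Fau, made as a fusion with a ubiquitin-like protein, did not pass with the inhibitor (0.14, adjusted p = 0.699).

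Of 10 paralog genes in the table, 7 were tested, and 5 fell with the inhibitor, against 22.2% of all tested genes. Rpl36al, the retained copy of Rpl36a, measured 8.06, 6.43 and 6.29 RPKM with DMSO and 3.81, 3.20 and 1.67 with the inhibitor (-1.06, adjusted p = 0.00118). Rpl22l1 fell by 0.49 (adjusted p = 0.045), a call lost in 5 of 6 single-library omissions (adjusted p = 0.0507 to 0.220) and in 5 of 10 other settings, voom and the separate fit among them. Its partner Rpl22 was at 21.1, 22.4 and 21.2 RPKM against 21.2, 23.7 and 19.5 (-0.01 ± 0.14, adjusted p = 0.983), and whether the pair differed was not tested. The tissue-restricted paralogs Rpl39l and Rpl10l had reads in 1 library each.

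Mitochondrial ribosomal proteins, encoded in the nucleus for the organelle's own ribosome, gave 32 lower and 1 higher of 66 tested with the inhibitor (median -0.30), and 34 lower and 0 higher after withdrawal (median -0.41). Of all tested genes 22.2% and 22.5% fell, and of genes with at least 5 RPKM 41% and 43.7%. Mrpl18 fell from 10.7, 9.73 and 11.3 RPKM to 4.98, 6.23 and 5.48 with the inhibitor (-0.82) and from 9.34 and 9.89 to 3.15 and 3.38 after withdrawal (-1.31), and Mrpl24 was the one that rose with the inhibitor (0.49, adjusted p = 0.0015). Noncoding snoRNA host genes were mixed, with 4 of 12 lower and 1 higher with the inhibitor, against 22.2% and 16.3% of all tested genes. Snhg18 was the riser, from 0.540, 0.732 and 0.356 RPKM to 3.31, 3.98 and 3.21 (1.55, adjusted p = 1.53e-06), whereas Snhg1 fell by 0.68 with the inhibitor (adjusted p = 0.0595 with quantile normalization) and by 1.41 after withdrawal. These lists are described by their counts and medians, and none was tested against other genes as a set.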

How the data were processed

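Total RNA was amplified (Ovation RNA-seq V2) and made into libraries with NEBNext Ultra, per the labels' protocols. The submitters' processing notes name GRCm38, STAR, HTSeq, edgeR and limma, without versions. The deposited values are RPKM per gene, made by the authors. RPKM times gene span (GENCODE M21; 53713 of 54429 entries matched) summed to 999127.54 to 1002611.4 per library, so the span, introns included, was the length used. Reads recovered this way were whole within 0.1 for 98.9% to 99.3% of values up to 20 reads. The sources used here do not state multi-mapping, strand or annotation settings.

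One limma fit (version 3.58.1, R 4.3.3; trend and robust empirical Bayes) of log2(RPKM + 1) with 9 group means and 16 residual degrees of freedom covered the 13850 genes at 1 RPKM or more in at least 2 libraries, and genes with a Benjamini-Hochberg adjusted p below 0.05 were called higher or lower. The fit was tested on simulated data. The share of reads was compared by two-sided exact permutation tests. Pseudogene copies were found with BLAST+ 2.17.0. Members and gene lists were chosen with earlier results of these data known. Named members were up to 6 per direction and comparison by change, the 6 highest and 6 lowest by level, 14 fixed genes, and those that failed the filter; named genes of the other lists were up to 3 per direction and comparison by p. Alternatives were other pseudocounts, filters, scalings, voom on recovered reads, separate fits, a replicate block, single libraries left out and, added after seeing the data, copy reads added to members. Residuals of same-numbered libraries correlated at 0.15, 0.28 and 0.16 between days 2 and 14. In the HBEGF experiment both such correlations were 0.08, and 2 libraries a group force them to be equal. The other groups had negative values in some same-numbered pairs. The sources used here do not say whether libraries are paired. Some genes are not reported individually here.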

Additional observations from a re-analysis of the deposited data

Results flagged for a closer look

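For 2 genes the EGFR inhibitor change and the HBEGF withdrawal change differed by a direct test in the limma fit over all 25 libraries. Rpl15 differed by -1.81 on the log2(RPKM + 1) scale (adjusted p = 0.0111), with the rise after withdrawal, in 2 of 2 libraries, and overlapping values with the inhibitor. Pabpc1 differed by 0.89 (adjusted p = 0.00851), with the larger fall after withdrawal. With the replicate number as a block the adjusted p was 0.073 for Rpl15 and 0.076 for Pabpc1.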

How the results depend on the processing

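Over alternatives, counts of members that fell stayed within 1.5 times of 27 for the EGFR inhibitor. They were 34 with the replicate block, 35 fitted alone, 30 with voom (22.3% of all tested genes) and 19 with quantile normalization, where 1 member rose. After HBEGF withdrawal 38 fell with the block and 40 with voom (22.9% of all tested genes), and fitted alone 0 rose and 0 fell (0% of all tested genes lower). From day 2 to day 14 the 17 became 15 with the block, 11 without a filter, 4 with quantile normalization (where 1 rose) and 2 fitted alone. The count was also 4 with median-of-ratios scaling (9.56% of all tested genes) and 4 with scaling to reads outside the mitochondrial genome (10.1%). For the block, no filter, quantile normalization, the other separate fits and single-library omissions, shares of all tested genes are not reported here. Between days 2 and 7 the 1 that fell became 0 with a pseudocount of 0.1, no filter, each of these scalings, the ages fitted alone or copy reads added, and 3 rose with quantile normalization. The difference between treatments called 0 members fitted alone or with the block. Leaving out 1 library gave 21 to 24 lower for the EGFR inhibitor, 23 to 38 for withdrawal (with 1 higher each time), 2 to 23 for day 14, 0 to 1 for day 7 and 0 to 1 for the difference (0 without withdrawal replicate 2). Differences in share ran, in percentage points, from -0.160 to -0.129 (EGFR inhibitor), -0.270 to -0.114 (withdrawal), -0.0826 to -0.0162 (P53), -0.142 to 0.0366 (day 14 against 2), 0.0037 to 0.182 (day 7 against 2) and -0.205 to -0.106 (day 14 against 7). Other scalings moved the median change of genes with at least 5 RPKM, after withdrawal from -0.45 to -0.33, -0.26 and -0.20 (median-of-ratios, without mitochondrial reads, quantile), and with the EGFR inhibitor from -0.33 to -0.32, -0.25 and -0.14. Of 3612 alternative values for named genes 0 reversed and 609 lost the threshold, 141 of them in separate fits. The cause was not tested. Counts under about 20 reads, as for Rpl35, are too few for a change to be detectable.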
